A study of Mus musculus with 31 samples.

Results

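A set of 10 genes of mucosal and bile duct epithelium were followed liver by liver in male C57BL6/J mice from a pair of ChREBP mutant lines. Tff2, Zg16, Dmbt1, Tff3 and Klk1 encode secreted products of glandular epithelia. Krt7, Krt19, Epcam, Spp1 and Sox9 are used as markers of bile duct epithelium. The members were selected on measured values of these same arrays, as genes silent in most livers and very high in a few together with biliary markers, so their pattern is described here and is not a test result. All probes carrying these 10 gene names were taken, which gave 11 probes among the 36057 of the deposited table. Sox9 had 2 probes and each other gene had 1.

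The study used 1-colour Agilent arrays of whole-liver RNA from ChREBPβ-deficient mice (8 arrays), WT littermates of that line (8), total ChREBP-KO mice (7) and WT mice of the total ChREBP line (8). ChREBPβ-deficient mice carried a CRISPR/Cas9 deletion of the Mlxipl exon that is specific to the β isoform, and total ChREBP-KO mice were Mlxipl-null and lacked both isoforms. Both losses were present in every tissue, and the sources used here give neither the age of the mice nor which founder line was arrayed. All groups received a regular diet and were fasted for 24 h, then refed for 18 h with 20% glucose in the drinking water. The replicate numbers in the labels were the only record of separate animals, so p-values measure the spread between these arrays.

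Mlxipl signal was 13.89 to 14.30 (log2) in total ChREBP-KO mice and 15.14 to 15.48 in their WT mice, and 14.40 to 14.84 in ChREBPβ-deficient mice against 14.88 to 15.33 in WT littermates, although the sources used here do not say whether the probe lies in the removed sequence. The arrays of WT mice 7 and 8 of the total line agreed more closely than any other of 465 pairs. None of 15894 bright probes differed 2-fold between them, against at least 30 in every other pair. They were therefore averaged and counted as 1 sample, which left 30 samples. Of the liver's own markers, 5 hepatocyte genes summed to between 805857 and 951402 signal units in 26 livers, and none was 4-fold above its median in any liver. The brighter Alb probe in each sum read 18.96 in every sample, because quantile normalization gives 1 value to a probe of equal rank. These sums therefore do not measure hepatocyte content.

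Trefoil factors (Tff1, Tff2, Tff3) are small, disulfide-rich peptides released with mucus. Tff2 belongs mainly to gastric mucous cells and Tff3 mainly to intestinal goblet cells, and bile duct epithelium can also make trefoil peptides. Zg16 is a lectin-like protein of pancreatic zymogen granules and of goblet cell mucus, and Dmbt1 is a scavenger-receptor glycoprotein that binds bacteria at mucosal surfaces. Klk1, tissue kallikrein, is a secreted serine protease with many close copies in the mouse genome. Hepatocytes are not a known major source of Tff2, Zg16 or Dmbt1. Krt7 and Krt19 are keratins and Epcam is an adhesion protein of simple epithelia including bile duct, gut and pancreatic duct. Spp1 (osteopontin) is a secreted phosphoprotein of bile duct cells and macrophages, and Sox9 is a transcription factor of ducts and gut crypts.

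The sequences that measured the main changes are those of the array probes, with mm9 coordinates from the array design. The probes of Tff2 at chr17:31279256-31280080 (minus strand) and Epcam at chr17:88048972-88049800 (plus strand) each placed 60 bases over a longer stretch of genome, so that each crossed at least 1 splice junction. The probes of Zg16 at chr7:134193837-134193896 (minus) and Krt19 at chr11:100002392-100002451 (minus) matched the genome in an unbroken block. Read 5′ to 3′, they were as follows.
Tff2: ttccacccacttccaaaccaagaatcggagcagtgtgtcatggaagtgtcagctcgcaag
Zg16: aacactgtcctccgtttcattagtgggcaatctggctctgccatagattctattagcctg
Krt19: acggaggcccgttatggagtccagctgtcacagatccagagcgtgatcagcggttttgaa
Epcam: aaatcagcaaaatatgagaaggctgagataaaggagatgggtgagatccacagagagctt

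A sample was called high for a gene when its log2 signal lay at least 2, or 4-fold, above the median of that gene over the 30 samples. Tff2, Zg16 and Dmbt1 were near the detection limit in most livers and far above it in a few. Mouse 5 of the total ChREBP-KO group was high for Tff2, Zg16, Dmbt1, Tff3, Krt19 and Epcam. ChREBPβ-deficient mouse 5 was high for Tff2, Zg16 and Dmbt1, WT mouse 2 of the total line for these and for Tff3, and WT mice 7 and 8 of that line for Zg16 and Dmbt1. None of the 8 WT littermates of the ChREBPβ line was high for any member.

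**Figure D1:**
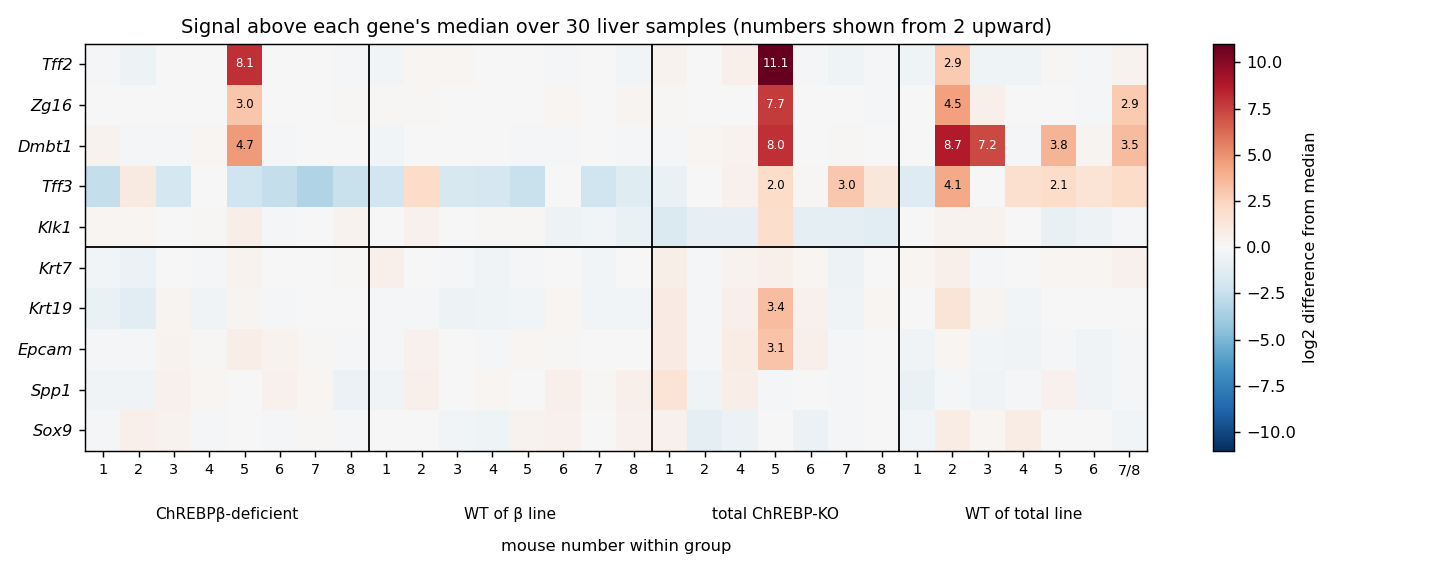
Log2 signal of each gene (rows) in each liver (columns, by group and mouse number) minus that gene's median over the 30 samples, with values printed from 2 upward. Total ChREBP-KO mouse 5 carries printed values for 6 genes, from Tff2 at 11.1 to Tff3 at 2.0, and the WT littermates of the β line carry none.

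Tff2 had the widest range. The log2 signals of the ChREBPβ-deficient mice were 4.64, 5.19 and 13.28 (lowest, median and highest), and those of WT littermates were 4.87, 5.23 and 5.45. In total ChREBP-KO mice they were 4.71, 5.20 and 16.27, and in their WT mice 4.74, 5.12 and 8.08. Each of the 3 high livers stood alone in its group. Relative to the median of the 30 samples, total ChREBP-KO mouse 5 was 2135-fold, ChREBPβ-deficient mouse 5 was 270-fold and WT mouse 2 was 7.31-fold higher. The smallest distance from the median among the high samples was 2.87 and the largest among the others was 0.53 on the log2 scale.

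Zg16 was confined to a narrow band outside 4 samples. The 26 other samples lay between 4.87 and 5.56. The high ones were total ChREBP-KO mouse 5 at 12.74, WT mouse 2 of the total line at 9.52, ChREBPβ-deficient mouse 5 at 8.04, and the averaged WT mice 7 and 8 at 7.93. Relative to the median these were 212-fold, 22.7-fold, 8.13-fold and 7.54-fold. The order of the livers therefore differed from that of Tff2: ChREBPβ-deficient mouse 5 was behind total ChREBP-KO mouse 5 alone for Tff2 and behind WT mouse 2 as well for Zg16. WT mice 7 and 8 read 7.87 and 7.99 for Zg16 when kept apart, and 5.48 and 5.70 for Tff2, which was not high there.

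Dmbt1 was not well above background in 22 of the 24 samples that were not high for it. The high samples were WT mouse 2 of the total line at 13.15, total ChREBP-KO mouse 5 at 12.44, WT mouse 3 at 11.65, ChREBPβ-deficient mouse 5 at 9.10, WT mouse 5 at 8.16, and the averaged WT mice 7 and 8 at 7.86. The 2 remaining samples above background were ChREBPβ-deficient mouse 1 at 4.83 and WT mouse 6 of the total line at 4.70. With the 22 others set at the lowest signal accepted as above background, or at their own where higher, the high samples were at least 388-, 236-, 137-, 23.4-, 12.2- and 9.88-fold above their mean. Of the 6 high samples, 4 were WT mice of the total line. WT mice 3 and 5 of that line were high for Dmbt1 and not for Tff2 or Zg16, and no gene of the mucosal, gastric, intestinal, acinar or cholangiocyte lists described later was high in either. Dmbt1 passed the signal filter only through the WT mice of the total line, so its place among the tested probes depended on the group in which it was high, and no test of that group is read for it. It reached the minimum of 6 arrays of 1 group only with arrays 7 and 8 counted apart.

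**Figure D2:**
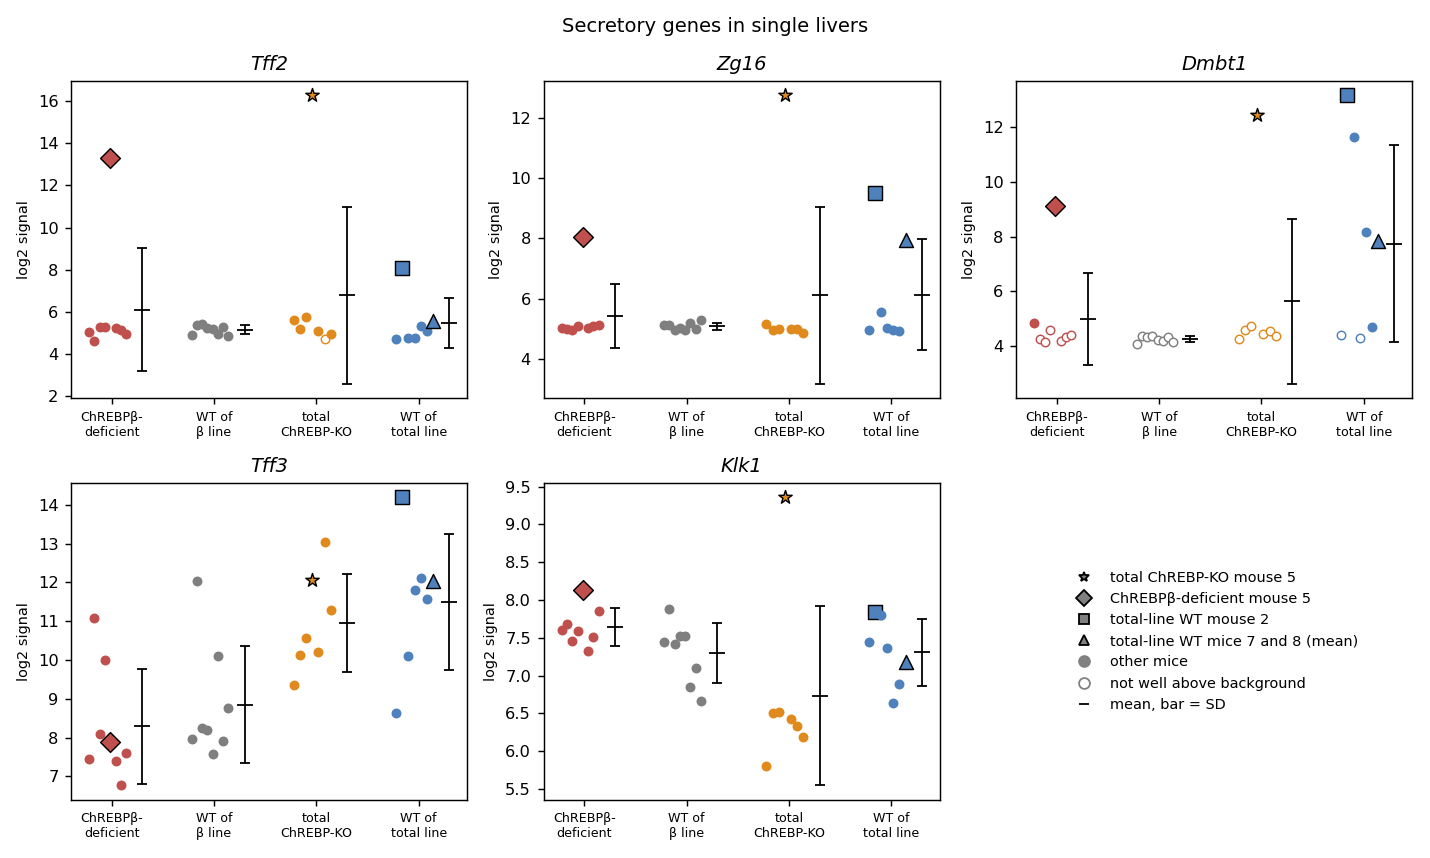
Log2 signal of the 5 secretory genes in single livers by group, with mean and SD bars, marked symbols for the livers that were high for Zg16 and open symbols for signals not well above background. Tff2 and Zg16 show single livers far above an otherwise flat group, Dmbt1 splits the WT mice of the total line, and Tff3 is graded.

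Tff3 did not share this on-or-off form. Its lowest, median and highest log2 signals were 6.77, 7.75 and 11.08 in ChREBPβ-deficient mice and 7.57, 8.23 and 12.04 in WT littermates. They were 9.36, 10.57 and 13.03 in total ChREBP-KO mice and 8.63, 11.81 and 14.20 in their WT mice. At least 4-fold above the median were 4 samples, namely WT mouse 2 (17.7-fold), total ChREBP-KO mouse 7 (7.88-fold), WT mouse 5 (4.17-fold) and total ChREBP-KO mouse 5 (4.00-fold). The values formed a continuous range, with the last of these just over the limit of 2 and the next sample 1.99 above the median on the log2 scale. ChREBPβ-deficient mouse 5, second of all livers for Tff2, was at 7.89 for Tff3.

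Klk1 was also present in all livers. Log2 signals were 7.33, 7.60 and 8.13 (lowest, median, highest) in ChREBPβ-deficient mice, 6.66, 7.43 and 7.88 in WT littermates and 6.64, 7.36 and 7.84 in WT mice of the total line. The total ChREBP-KO mice read 5.80, 6.18, 6.34, 6.42, 6.51, 6.52 and, in mouse 5, 9.36. The first 6 were below every WT mouse of their line, and mouse 5 was above every other liver of the study, 3.81-fold over the median.

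Of the biliary genes, Krt19 and Epcam each had 1 high liver. Krt19 read 7.21, 8.06 and 11.03 in total ChREBP-KO mice, 7.34, 7.66 and 9.01 in their WT mice, 6.43, 7.49 and 7.91 in ChREBPβ-deficient mice and 7.03, 7.32 and 7.81 in WT littermates. The highest value was again total ChREBP-KO mouse 5, 10.6-fold above the median, and the next was WT mouse 2 of the same line, also high for Tff2. Epcam read 5.49, 5.53, 5.69, 6.22, 6.48, 6.56 and 8.79 in total ChREBP-KO mice. The last value belonged to mouse 5, 8.74-fold above the median, and the WT mice of that line lay between 5.25 and 5.84.

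Krt7, Spp1 and Sox9 were high in no sample. Krt7 ranged from 5.29 to 6.61 and Spp1 from 11.19 to 13.44. The Sox9 probes ranged from 6.61 to 7.45 and from 7.23 to 9.02. The top Krt7 and Spp1 values belonged to total ChREBP-KO mouse 1, in which Tff2 was 5.62 and Zg16 5.17. For Spp1, total ChREBP-KO mouse 5 was at 11.73, below the median of 11.90.

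**Figure D3:**
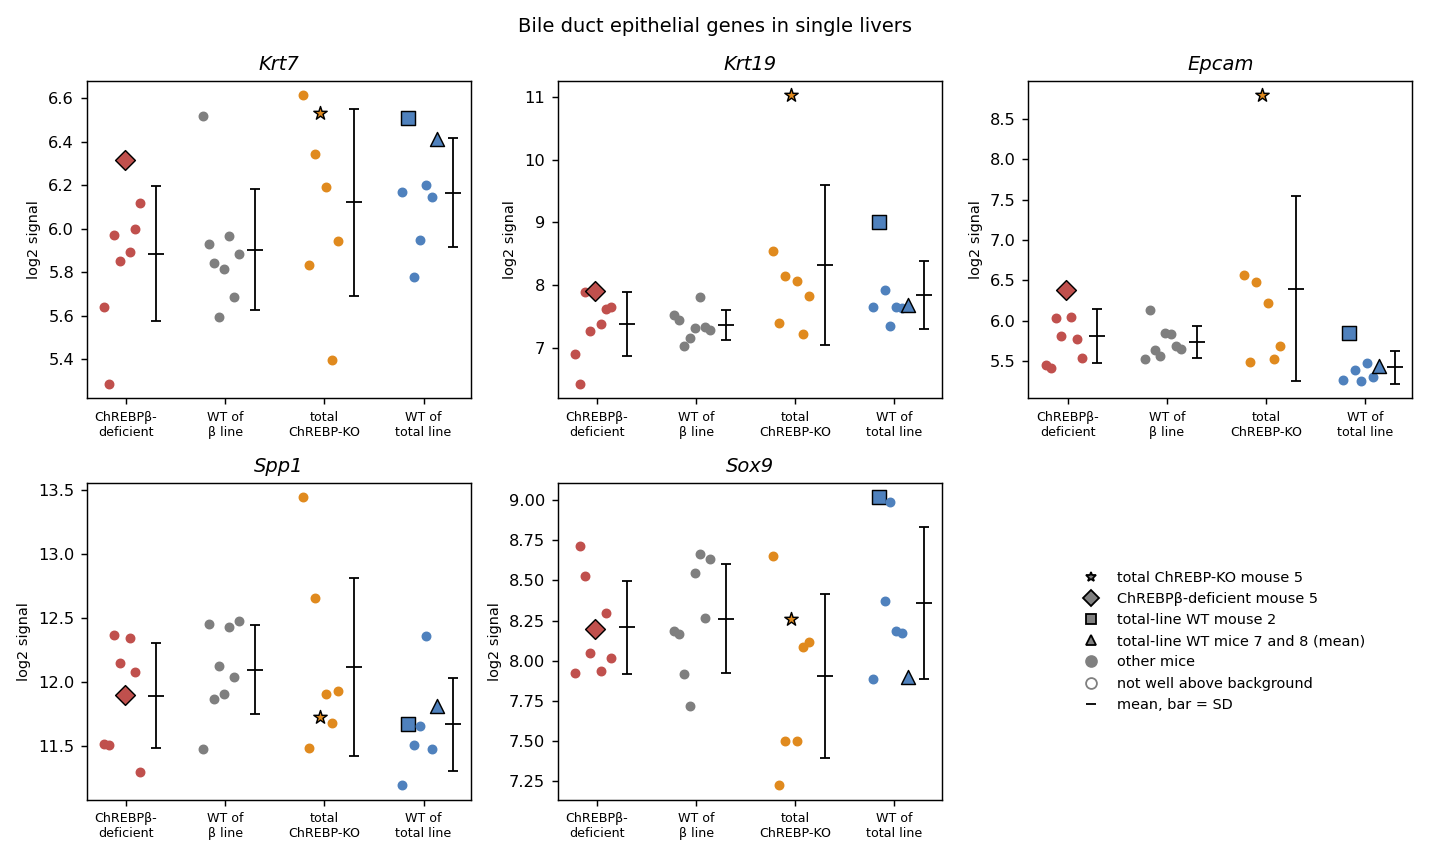
Log2 signal of the 5 bile duct genes in single livers by group, with mean and SD bars and the same marked livers (the dimmer Sox9 probe is not drawn). Total ChREBP-KO mouse 5 is the top liver for Krt19 at 11.03 and Epcam at 8.79 and lies within the other livers for Krt7, Spp1 and Sox9.

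To describe which genes rose together, Pearson r was computed over the 30 samples after the mean of each group was removed. The 10 pairs of secretory genes had a median r of 0.74 with a jackknife SE of 0.36. Tff2 and Zg16 gave 0.90 (Spearman rho 0.71), Zg16 and Dmbt1 0.84, Tff2 and Dmbt1 0.78, and Tff2 and Klk1 0.78. Tff3 stood apart, at 0.16 with Tff2, 0.30 with Zg16 and 0.27 with Dmbt1. These values came from the few high livers: without samples high for either gene, Tff2 and Zg16 gave -0.19 over 26 samples, Zg16 and Dmbt1 gave -0.22 over 24, and the median over the 10 pairs was 0.02. Of the 10 pairs, 6 exceeded 0.5 with all samples and none did without the high ones.

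The secretory genes were related to some biliary genes and not to others. The 25 pairs across the sets had a median r of 0.25, from -0.40 for Klk1 and Spp1 to 0.84 for Tff2 and Epcam. Zg16 and Krt19 came next to the highest pair, also at 0.84. Tff2 gave 0.84 with Epcam, 0.80 with Krt19, 0.47 with Krt7, 0.18 with Sox9 and -0.07 with Spp1. Without the samples high for either gene, 27 samples remained for each Tff2 pair, within a Tff2 range near the detection limit. Tff2 then gave 0.65 with Epcam, 0.60 with Spp1, 0.50 with Krt7, 0.40 with Krt19 and -0.31 with Sox9. Zg16 then gave 0.17 with Epcam and 0.34 with Krt19 over 26 samples. The livers with high Tff2 and Zg16 did not have high Spp1 or Sox9, although WT mouse 2 of the total line had the top value of the brighter Sox9 probe (9.02).

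Some pairs of biliary genes rose and fell together across the livers. Krt19 and Epcam had r 0.92 over 30 samples and 0.76 without total ChREBP-KO mouse 5, and Krt7 and Krt19 had 0.66 and 0.76. Epcam and Spp1 had 0.21 with that mouse and 0.71 without it. The median over the 10 biliary pairs was 0.30, with 3 pairs over 0.5 among all samples and 4 without the high samples. In whole-liver RNA, more cells of a type and more RNA per cell cannot be told apart.

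**Figure D4:**
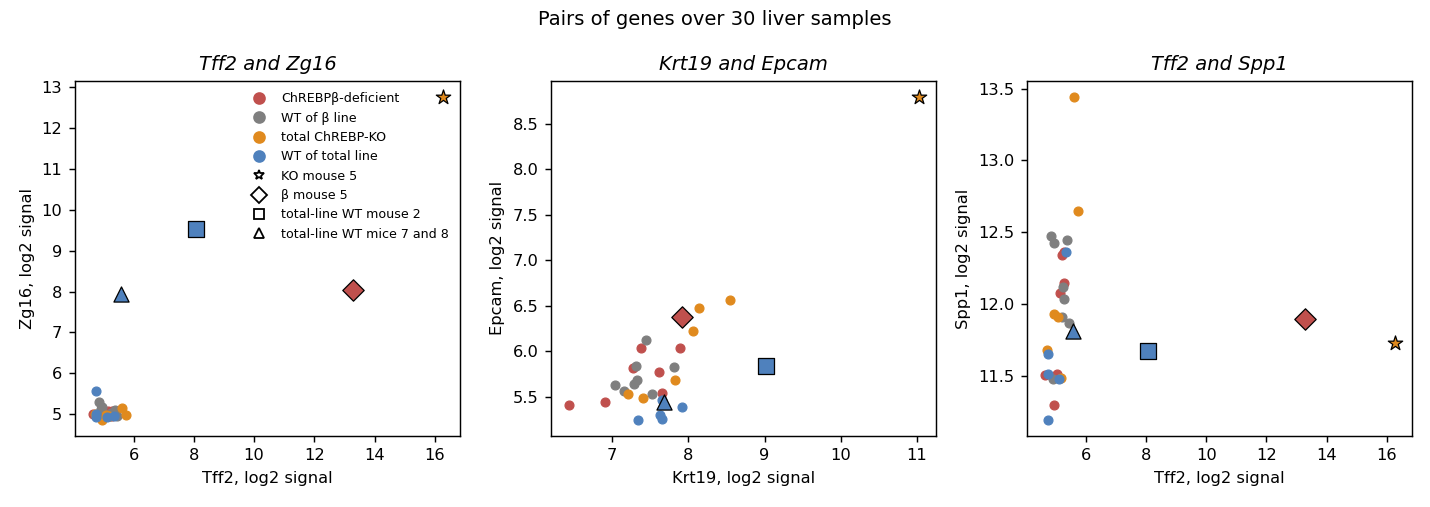
Log2 signals of Tff2 against Zg16, Krt19 against Epcam, and Tff2 against Spp1 in the 30 samples, coloured by group, with the 4 samples high for Zg16 marked. Outside the marked samples Tff2 and Zg16 form a tight cloud, and Krt19 and Epcam form a slope that continues to total ChREBP-KO mouse 5. Spp1 is not high in the livers with high Tff2.

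The genes most like each member over the 30 samples were ranked among 23958 genes. For Tff2 they were Gkn3 (r 0.97), a gastrokine of stomach mucosa, 2310057J18Rik (0.97), the transmembrane mucin Muc13 (0.94), 9530053A07Rik (0.94) and the brush-border protein Vil1 (0.93). For Zg16 they included Wfdc18 (0.91), Lgals2 (0.90) and the goblet cell inhibitor Spink4 (0.90), and for Dmbt1 Spink4 (0.91) and Wfdc18 (0.81). All of these had their highest signal in total ChREBP-KO mouse 5. Spink4 kept r 0.78 with Zg16 without the samples high for Zg16, whereas Gkn3 kept 0.27 with Tff2 and Muc13 kept -0.08.

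The remaining members had other partners. Tff3 was most like the lysosomal protease Ctsc (0.86), Btg2 (0.84) and Junb (0.82), the latter being growth-response genes, and these held at 0.84, 0.81 and 0.79 without its 4 high samples. Krt19 was most like Krt42 (0.97), Prr15l (0.93) and the tight-junction protein Cldn7 (0.90). Epcam was most like Cldn7 (0.96), Hkdc1 (0.95) and the chloride channel Cftr (0.94). Spp1 was most like Slc4a3 (0.82), Nme5 (0.81) and Bicc1 (0.80), all highest in total ChREBP-KO mouse 1. Krt7 was most like Gpc3 (0.76) and Ezr (0.72), and Sox9 had Ptpn1 (0.80) among its nearest.

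Lists of marker genes showed what else was high in the livers with high Tff2 and Zg16. In total ChREBP-KO mouse 5, high genes were 13 of 26 further mucosal genes, 4 of 9 gastric genes and 7 of 8 intestinal genes, against 248 of all 37074 gene names on the array (0.669%). Gkn3 was 15.52, Tff1 12.81, Gkn2 11.92 and the secretory disulfide isomerase Agr2 12.24. Of intestinal genes, the alkaline phosphatase Alpi was 11.26, Vil1 10.65 and the goblet mucin Muc2 10.05. The highest signals of the 26 samples not high for Zg16 were 7.33 for Gkn3, 4.76 for Agr2, 4.58 for Alpi and 4.77 for Muc2. The gastric proton pump subunits Atp4a and Atp4b were not high, and the brighter Atp4a probe was at its lowest in that liver (5.29).

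The same liver was also high for 5 of 20 cholangiocyte genes, namely Cftr (9.64), Cldn7 (10.68), Ehf, Ggt1 and Cd24a, which are also expressed by gut epithelium. The other genes of that list, among them Krt8, Krt18, Pkhd1, Sctr, Aqp1 and Bicc1, were not high there. Of these others, Elf3 (6.92), Cldn4 (5.63) and 1 Prom1 probe (5.44) still had their top value of all samples in that liver. In the other direction, 1 Pkhd1 probe had its lowest value there (7.56). The gallbladder list (Pax8, Cckar, Sox17) was high in no sample. The part of other epithelium in the signals of that liver was not tested.

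ChREBPβ-deficient mouse 5 carried a smaller set of the same kind. It was high for 7 mucosal genes (Muc13, Agr2, Fcgbp, Clca1, Lypd8, Reg3b and Reg3g), 1 gastric gene (Gkn3, 12.50), 1 intestinal gene (Alpi, 7.13), 1 acinar gene (Reg1) and no cholangiocyte gene, against 60 of all 37074 gene names (0.162%). Its Tff1 was 5.60 and its Gkn2 4.37, the latter near the median of 4.27. Summed signal of the gastric list was 58623 in total ChREBP-KO mouse 5, 6229 in ChREBPβ-deficient mouse 5 and 451 to 955 in the 26 samples not high for Zg16.

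WT mouse 2 and the averaged WT mice 7 and 8 of the total line differed from these in their companions. WT mouse 2 was high for 21 of 26 pancreatic acinar genes and the averaged mice for 17, including the amylase Amy2a5 (13.62 and 12.02), the carboxypeptidase Cpa1 (10.87 and 9.20) and Try4 (11.68 and 10.24). Of all 37074 gene names, 92 (0.248%) were high in WT mouse 2 and 30 (0.0809%) in the averaged mice. No gastric or intestinal gene was high in either sample. Mucosal genes high there were Gp2 in both, and Reg3b, Lcn2 and Slpi in WT mouse 2. Gp2 is on the mucosal and acinar lists alike. In total ChREBP-KO mouse 5, 5 acinar genes were high (Cela2a, Ctrc, Reg1, Spink1 and Gp2), while Cpa1 was 4.62 and Try4 4.12, near their medians over all samples. Spink1 was also high in total ChREBP-KO mice 4, 7 and 8 and in WT mouse 2. Cela2a was 11.31 in mouse 5, against 10.75 in the highest of the samples not high for Zg16. No islet gene was high in any sample.

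**Figure D5:**
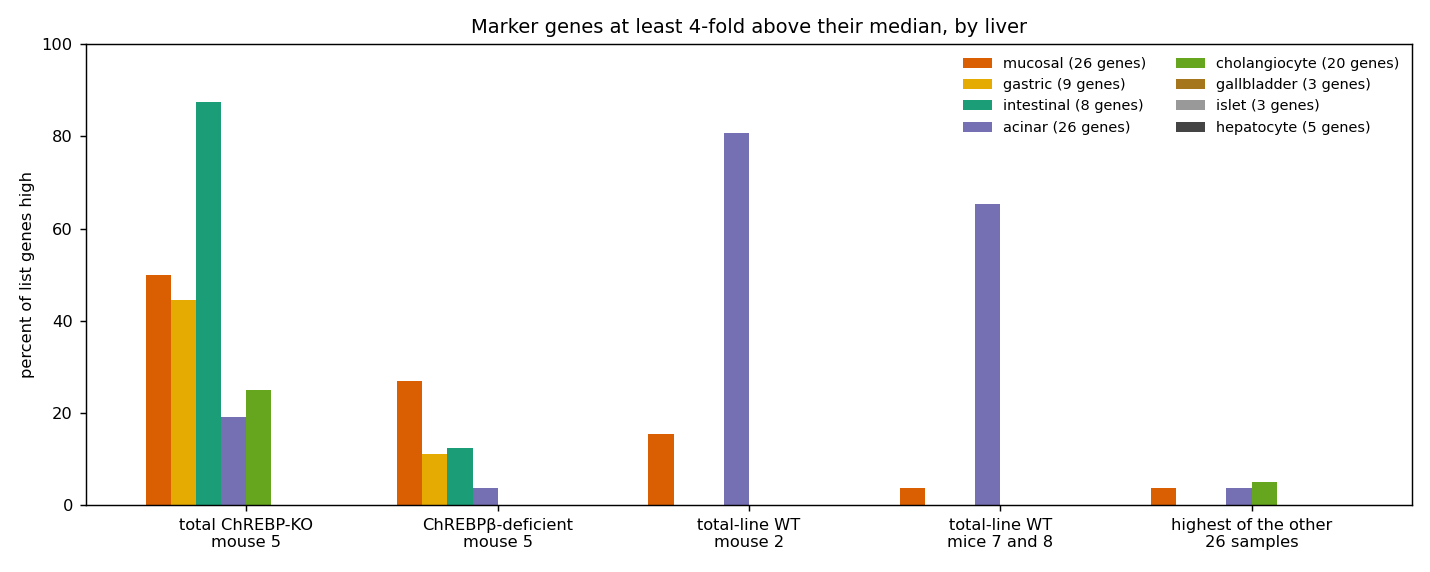
Percent of the genes of each marker list that were at least 4-fold above their median and well above background, in the 4 samples high for Zg16 and as the highest of the other 26 samples. Gastric and intestinal genes appear in the mice numbered 5, acinar genes dominate in the WT mice of the total line, and gallbladder, islet and hepatocyte genes appear nowhere.

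Total ChREBP-KO mouse 5 and WT mouse 2 of the same line were hybridised on the same slide, together with ChREBPβ-deficient mouse 4, which was high for no member. ChREBPβ-deficient mouse 5 was on another slide of the other scan day. The part of slide in these signals was not tested.

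Genotype effects were estimated by limma in 1 fit over all 36059 probes that passed the filter, with Benjamini-Hochberg adjustment. Because the members were chosen from these arrays, the estimates describe the same samples and are not independent evidence. In ChREBPβ-deficient mice versus WT littermates, none of the 10 members passed an adjusted p of 0.05, and neither did any at an unadjusted 0.05. Of all probes, 0.00277% passed, 1 of 36059, and 1767 had an unadjusted p under 0.05. Tff2 was 6.11 ± 2.91 (SD, n = 8) against 5.16 ± 0.22 (n = 8), a log2 difference of 0.95 with a 95% interval from -1.53 to 3.43. That mean and SD were set by mouse 5. Klk1 was 7.65 ± 0.25 against 7.30 ± 0.40, a difference of 0.35 (interval -0.29 to 0.98).

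In total ChREBP-KO mice versus WT mice, 1 of the 10 members passed, against 27.3% of all probes. Epcam was 6.40 ± 1.15 (n = 7) against 5.42 ± 0.20 (n = 7), higher by 0.97 on the log2 scale or 1.96-fold (SE 0.30, limma adjusted p = 0.0149). The groups overlapped, since 3 of the KO mice read 5.69 or lower. The difference was 1.40 on the first scan day (adjusted p = 0.0615) and 0.41 on the second (adjusted p = 0.259), and it did not pass with slide in the model (adjusted p = 0.0566) or in a fit of the total line alone (0.0869). Tff2 differed by 1.32 (interval -1.33 to 3.97), Zg16 by -0.02 (-1.82 to 1.78), Krt19 by 0.47 (-0.28 to 1.22) and Spp1 by 0.45 (-0.03 to 0.93). The second Sox9 probe fell by 0.45 with an unadjusted p of 0.0345 and an adjusted p of 0.102. The median difference over the 11 member probes was -0.04, and over all probes it was 0.01.

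A single liver decided several of these estimates. Without total ChREBP-KO mouse 5, Epcam and Klk1 passed, against 25.8% of all probes. Dmbt1 was called there too, but that call is not read, because the probe was kept through the WT mice of this line. Epcam stayed higher in KO mice by 0.57, 1.49-fold (SE 0.17, limma adjusted p = 0.011). Klk1 was lower by 2.02-fold, a log2 difference of -1.01 (SE 0.19), against -0.57 (limma adjusted p = 0.211) with that mouse included. Mouse 5 was singled out by its own values and was the only KO liver not below every WT mouse for Klk1. The Klk1 call without it is therefore a description and not a test. The 6 remaining KO mice lay entirely below the WT mice for Klk1, as was true of 4.57% of all probes in that direction. That share is not like for like, because mouse 5 was not picked by the values of the other probes. On the second scan day, which did not hold mouse 5, Klk1 averaged 6.31 in KO mice (n = 3) and 6.90 in WT mice (n = 3).

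Dmbt1 also turned on that liver. Without mouse 5, none of the 6 KO mice was well above background, while 4 of the 7 WT samples were high, and the WT mean was at least 8.72-fold higher, a value given as a description because the probe was kept through those WT mice. Krt19, at 0.47 with mouse 5, was then at 0.02, and the Tff2 difference turned from 1.32 to -0.26, neither passing the test.

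The genotype effects of the lines were compared directly as the total minus the ChREBPβ effect. None of the members passed, against 14.4% of all probes. Klk1 had a difference of effects of -0.92 (SE 0.45, unadjusted p = 0.051, limma adjusted p = 0.187) and Epcam 0.90 (SE 0.41, unadjusted p = 0.0363, limma adjusted p = 0.149). Without total ChREBP-KO mouse 5, Klk1 had -1.36 (SE 0.25), where 13.3% of all probes passed. That value too is a description, because the liver left out was the contrary one for Klk1.

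Part of the Klk1 gene family fell in total ChREBP-KO mice, although Klk1 itself did not pass with all samples. Of 13 further Klk1b genes, 8 passed the signal filter, and 4 of them fell in total ChREBP-KO mice, where 27.3% of all probes passed (median log2 difference -0.75 over the 8, against 0.01 over all probes). Klk1b4 fell by 0.91 (limma adjusted p = 0.00148), Klk1b22 by 0.83, Klk1b8 by 0.78 and Klk1b24 by 0.76. None passed in ChREBPβ-deficient mice, where the median difference was 0.39, and the same 4 passed in the difference of effects, against 14.4% of all probes. Without total ChREBP-KO mouse 5, all 8 fell, with a median of -1.01, against 25.8% of all probes passing, again as a description. Klk1b21 fell least without that mouse, with a log2 difference of -0.30. That liver was the highest of all for Klk1b5 (10.52), Klk1b26 (10.31) and Klk1b3 (9.71), and was not for Klk1b4 (8.83), Klk1b8 (8.95), Klk1b24 (8.99) or Klk1b22 (7.26). No other KO liver exceeded 7.86 for any of these 7.

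Klk1b genes share long stretches of sequence, and the probes of the family are shown because cross-hybridisation could join their signals. The Klk1 probe lies at chr7:51484170-51484325, the Klk1b4 probe at chr7:51466302-51466457 and the Klk1b8 probe at chr7:51209619-51209678 (mm9, plus strand). Capitals mark bases that differ from the Klk1 probe within the best ungapped overlap.
Klk1: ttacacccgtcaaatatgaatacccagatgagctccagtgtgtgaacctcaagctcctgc
Klk1b4: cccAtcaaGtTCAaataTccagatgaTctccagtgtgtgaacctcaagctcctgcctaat
Klk1b8: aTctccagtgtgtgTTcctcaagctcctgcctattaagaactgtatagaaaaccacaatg
The Klk1b4 probe equals the Klk1 probe at 48 of 55 overlapping bases, with an unbroken run of 28, and the Klk1b8 probe at 27 of 30. The tested probes for Klk1b3, Klk1b5 and Klk1b26 shared 24, 20 and 19 bases with that of Klk1 in such overlaps. A second Klk1b26 probe, which did not pass the signal filter, equals it at 42 of 58. Over the 29 samples without total ChREBP-KO mouse 5 the 3 tested probes gave r 0.93, 0.93 and 0.94 with Klk1, and Klk1b4 and Klk1b8 gave 0.84 and 0.90. Klk1b24 and Klk1b22 gave 0.91 and 0.86, and Klk1b21 gave 0.28. The part of cross-hybridisation was not tested.

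Between the WT mice of the lines Tff3 passed, where 15% of all probes did. Dmbt1 was called as well, but that call is not read, because the signal filter favoured it. Tff3 was 11.49 ± 1.75 (SD, n = 7) in WT mice of the total line and 8.85 ± 1.51 (n = 8) in those of the ChREBPβ line, 6.25-fold higher (log2 difference 2.64, SE 0.73, limma adjusted p = 0.0137). The mean on each scan day was 11.19 and 11.91 against 9.02 and 8.68, and within the first day the difference did not pass (adjusted p = 0.277). In order of mean, Tff3 was lowest in ChREBPβ-deficient mice (8.29), followed by WT littermates (8.85), by total ChREBP-KO mice (10.95) and by WT mice of that line (11.49). Within each line, Tff3 differed between genotypes by -0.56 (ChREBPβ, interval -2.01 to 0.88) and -0.55 (total, interval -2.09 to 1.0), and neither passed. Dmbt1 was above background in none of 8 WT littermates of the ChREBPβ line and in 6 of 8 arrays of the total line. Those 6 include both arrays 7 and 8, which are averaged elsewhere. It was at least 9.46-fold higher there (measured means 7.75 and 4.26), again as a description, since these WT mice of the total line also brought the probe through the filter. Its call was lost when WT mouse 2, 3 or 5 was left out, when any of 7 of the WT littermates was left out, and within each scan day. Litter and colony of the lines cannot be told apart from the line itself.

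Genes of the marker lists were tested in the same fit, in which 27.3% of all probes passed in total ChREBP-KO mice and 25.8% without mouse 5. Of 12 mucosal genes tested, Muc5ac rose in total ChREBP-KO mice, none fell, and without mouse 5 none passed. Of 18 cholangiocyte genes, Ehf rose (0.77 and 0.67 for 2 of its probes) and Pkhd1 had probes in both directions. Without mouse 5 Ehf did not pass, whereas Sctr, the secretin receptor, did (0.51, limma adjusted p = 0.042). Of 3 intestinal genes, Vil1 (1.53, limma adjusted p = 0.0134) and Lgals4 (0.85) rose, and Vil1 passed without mouse 5 as well (0.87, limma adjusted p = 0.00222). Of 6 gastric genes, Muc5ac rose and Atp4a fell by 0.91. Of 13 acinar genes, Spink1 rose by 1.75. Pax8 of the gallbladder list rose by 0.26, and of 5 hepatocyte genes Cps1 rose by 0.45 and 1 probe of Ttr by 0.17. In ChREBPβ-deficient mice no gene of any of these lists passed.

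Between the WT mice, where 15% of all probes passed, list genes differed in both directions. Higher in the total line than in the ChREBPβ line were the acinar genes Cela2a (1.91) and Ctrc (1.77) and the cholangiocyte genes Cdh1 (0.43) and Prom1 (0.21). Cela2a read 13.50 in WT mouse 2 and 12.05 in the averaged WT mice 7 and 8, against a median of 8.82 over all samples. Ctrc read 11.53 and 9.98 there, against 7.04. The part of these acinar-high samples in the line differences was not tested. Lower there were the mucosal gene Wfdc2 (-1.28, limma adjusted p = 9.7e-05), the intestinal gene Fabp2 (-0.78) and the cholangiocyte genes Sctr (-0.52) and Pkhd1 (-0.53 and -0.44 for 2 of its probes).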

How the data were processed

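Whole-liver RNA was hybridised to 31 Agilent 1-colour (Cy3) arrays, and per the labels the images were read with Agilent Feature Extraction 10.10.1.1. The deposited scanner files give spot intensity (median signal), and the deposited table gives log2 values that the authors read in with limma and quantile-normalized with preprocessCore. The authors' filter and quantile normalization were repeated here from the spot intensity: spots passing on at least 26 arrays or at least 6 of 1 group were kept, and the median log2 value of repeated spots was taken. Member values differed from the deposited table by at most 0.0368. Median background was 15 to 33 units, no member spot was saturated, and the number of arrays limits precision. WT arrays 7 and 8 of the total line were averaged, a departure from the design of 31 separate arrays.

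limma 3.58.1 in R 4.3.3 fitted the 4 groups without covariates, on 36059 probes, with Benjamini-Hochberg adjustment. Scripts were tested on simulated data. "Well above background" is the scanner's own call. A group at background throughout was set at the lowest signal accepted as above background on each array, which gives the folds stated as at least. Marker lists were read without the filter on dim spots. Gene names and mm9 coordinates come from the array design.

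The members, the marker lists and the tests were chosen with earlier results of these data known. Named genes are the members, up to 5 genes most like each (one probe per gene, the one with the highest mean), Mlxipl, and list genes that passed a test or were high in a sample. Replicate numbers were checked for pairing. The alternatives covered scaling, background correction, filters, slide, scan day, replicate number, separate fits and each array left out.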

Additional observations from a re-analysis of the deposited data

Results flagged for a closer look

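Single livers stood outside their own group by Dixon's criterion in 13 of 44 tests of a member probe in a group. Chance marks about 1 in 20 such groups, a rate that cannot be set against this count because the members were chosen as silent in most livers and very high in a few. Of the 13, 9 belonged to the 2 mice numbered 5. Total ChREBP-KO mouse 5 was marked for Tff2 (16.27 log2), Zg16 (12.74), Dmbt1 (12.44), Klk1 (9.36), Krt19 (11.03) and Epcam (8.79). ChREBPβ-deficient mouse 5 was marked for Tff2 (13.28), Zg16 (8.04) and Dmbt1 (9.10). WT mouse 2 of the total line was marked for Tff2 (8.08), Krt19 (9.01) and Epcam (5.84), and WT littermate 1 of the ChREBPβ line for Krt7 (6.52).

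In the marker lists, 6 probes had genotype effects that differed between the lines by the limma test of the difference (total minus ChREBPβ effect, log2). They were Klk1b4 (-1.31), Klk1b22 (-1.24), Klk1b8 (-1.20), Klk1b24 (-1.15), 1 of the Pkhd1 probes (-1.43) and the trypsin inhibitor Spink1 (2.27). These came from 8 kallikrein, 27 cholangiocyte and 16 acinar probes tested, and no probe of the other lists passed. Of all probes, 14.4% passed the same test, so the count itself is not a result about the lists.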

How the results depend on the processing

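No member changed direction among the calls under any alternative. In ChREBPβ-deficient mice the count of members called was 0 under all 20 alternatives and all 31 single arrays left out. In total ChREBP-KO mice it was 1, and became 0 with the scanner's weight required on all arrays, with slide as a fixed block, on scan day 1 or 2 alone, or with each comparison fitted on its own groups. It became 2 by an unadjusted exact Mann-Whitney test and, as alternatives added after seeing the data, 3 without both mice numbered 5 or without all samples high for Zg16 (1 to 3 with single arrays left out, 2 without KO mouse 1). The difference of effects, 0 members, gave 1 on scan day 2 alone, 1 without both mice numbered 5, 2 without the samples high for Zg16, and 0 to 1 with single arrays left out. Between WT mice, 2 members became 1 with normexp background correction, no filter on dim spots, weight required on all arrays, slide as a fixed block, scan day 2 alone, own-group fits, trended and robust eBayes, the adjusted Mann-Whitney test or no samples high for Zg16, 0 on scan day 1, 5 by the unadjusted Mann-Whitney test, and 1 to 2 with single arrays left out. Tff3 lost its call under 4 of 20 alternatives, without the samples high for Zg16 (adjusted p = 0.0934), with slide held fixed (0.0606), on scan day 1 alone (0.277) and by the adjusted Mann-Whitney test (0.116). Dmbt1, which the signal filter favoured, is part of the count of 2 between WT mice, and no call for it is read in any of these counts. That call was lost under 6 of 19 alternatives and 10 of 31 single arrays left out. The cause of these losses was not tested.

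Samples high for Tff3 numbered 10 at a limit of 1 and 1 at a limit of 3. At a limit of 1, Krt19 had 2, Klk1 1 and Spp1 1, and Klk1 also had 1 with signals scaled to the 75th percentile. The median r of secretory pairs was 0.024 without high samples and 0.37 to 0.77 with single arrays left out, lowest without total ChREBP-KO mouse 5. Same-numbered pairs correlated over 0.1 in 6 of 8 cases in the ChREBPβ line (highest 0.53) and in 1 of 6 in the total line. Between the WT groups it was 2 of 7. Pairing by number in the ChREBPβ line was therefore not settled, and the main fit did not use it. With the replicate number as a block the member counts were 0, 1, 0 and 2, equal to those without it.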

Other observations

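Lcn2, a neutrophil and epithelial lipocalin, was high in 5 samples, and its top signal was 14.36 in WT littermate 8 of the ChREBPβ line, a group with no liver high for any member. Slpi, a secreted protease inhibitor, was 13.87 in total ChREBP-KO mouse 6, which was high for 217 gene names (0.585%), second to mouse 5, and for no member. In total ChREBP-KO mouse 6 Tff2 was 5.08, Zg16 4.99 and Epcam 6.22.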
